A study of Mus musculus with 8 samples.

Results

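The inducible mucosal defence genes examined here were Nos2, Duox2, Duoxa2, Lcn2, Slpi, Saa1, Pigr and Pglyrp1. They were found as the rows of the counts table whose Ensembl gene ID carries one of these symbols in the GENCODE annotation, and all 8 were present among 55414 genes. RNA was measured in Paneth cells, antimicrobial cells found deep in the crypts, after sorting from mouse small intestine by FACS. The TG group held 4 libraries from diphtheria toxin transgenic mice (genotype DT TG), whose Paneth cells express the toxin, and the wild type (WT) group had another 4. The series title names depletion of mature Paneth cells, and whether the sorted TG cells made the toxin was not tested. The study describes its sorted Paneth cells in general as coming from C57BL/6J animals, with a sample taken from each mouse, and the labels give neither point for these libraries. The promoter driving the toxin, the age of the mice and the time since toxin expression were not stated.

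The intestinal epithelium meets microbes with secreted proteins, with oxidants and with antibody transport. Most genes of this kind are transcribed weakly at rest and rise when cytokines or microbial products signal through NF-kB and STAT factors. DUOX2 makes hydrogen peroxide at the apical membrane with its maturation factor DUOXA2, and NOS2 makes nitric oxide. PIGR carries polymeric IgA and IgM across the cell, PGLYRP1 binds bacterial peptidoglycan, LCN2 captures bacterial siderophores, SLPI inhibits serine proteases and SAA1 is an acute-phase retinol and lipid carrier.

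Of the 8 genes, 4 were lower in TG than in WT (Pigr, Nos2, Duox2 and Duoxa2), 0 were higher, 1 was tested and not called (Pglyrp1), and 3 were too low to test (Lcn2, Saa1 and Slpi). Calls are edgeR quasi-likelihood tests adjusted by Benjamini-Hochberg over all 11929 tested genes at 0.05. Among all tested genes 9.65% were called lower and 8.26% higher. Each of the 5 tested genes held at least 12 counts in every library, so that none passed the filter through 1 group alone. All 5 had a fitted log2 difference below 0, with a median of -0.87, against 0.01 over all tested genes.

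Libraries held 13107397 to 16218434 counts and had counts for 15559 to 16943 genes. Levels below are CPM, read counts per 1000000 counts of a library whose total was scaled by its TMM factor. These factors ranged from 0.845 to 1.10, and levels per kilobase of exon are used only where genes are compared. Y-linked genes had 897 to 1564 counts in replicates 3 and 4 of each group and 0 in the others, so values of the members are also given within these 2 against 2 libraries. The Paneth markers summed to between 394300 and 484300 CPM in TG and between 377400 and 571200 CPM in WT, with 0 of 10 absent and 3 called lower. Of 11 enterocyte markers 5 were called higher, and the list summed to 522 to 690 CPM in TG and to 355 to 455 CPM in WT without overlap (exact two-sided permutation p = 0.0286, the smallest possible, and 0.257 adjusted over 9 marker lists), and the part of these markers in the results below was not tested.

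**Figure D1:**
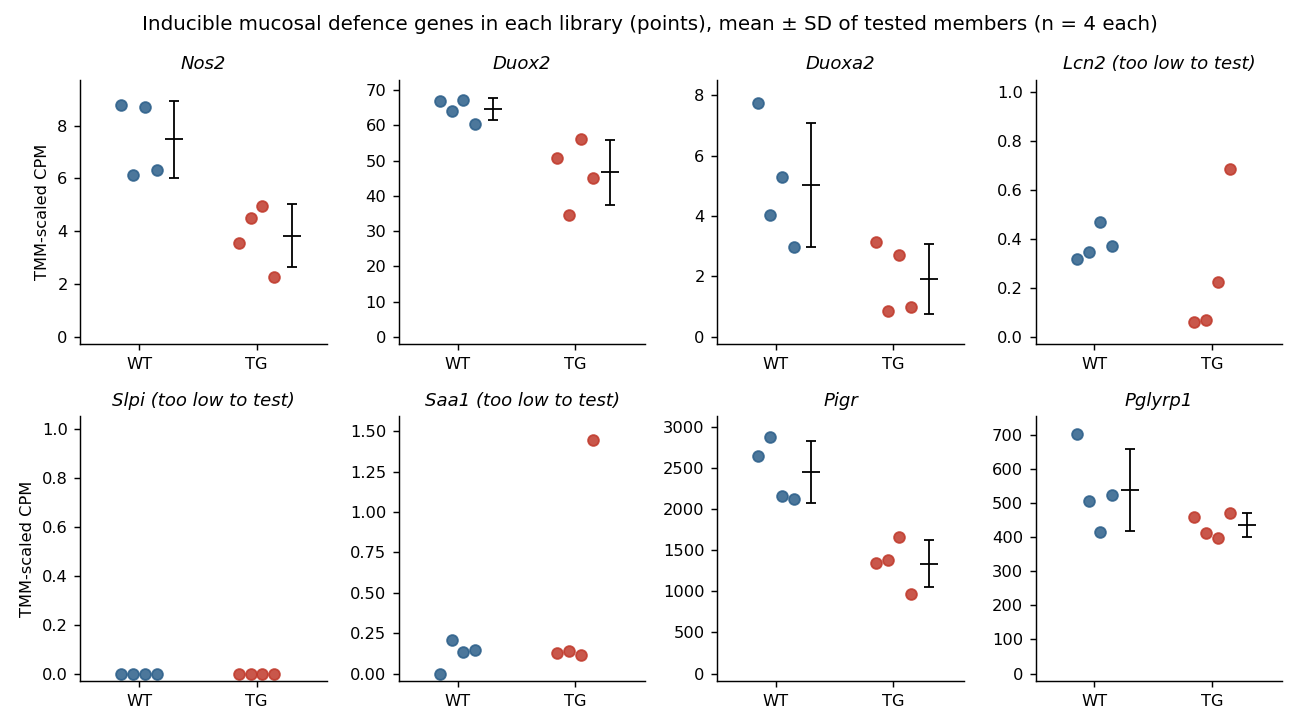
TMM-scaled CPM (y axes, linear, 1 panel per gene) of the 8 inducible mucosal defence genes in each WT (blue) and TG (red) library, with mean ± SD (n = 4) beside the points of the 5 tested genes. All TG points lie below all WT points for Nos2, Duox2 and Pigr, while Duoxa2 and Pglyrp1 overlap between the groups.

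The levels of the 8 genes spanned a wide range. Per kilobase of exon, WT means in CPM were 607 ± 92.3 for Pigr, 281 ± 63.0 for Pglyrp1, 9.55 ± 0.466 for Duox2, 3.15 ± 1.29 for Duoxa2 and 1.69 ± 0.328 for Nos2 (SD, n = 4). The ranges of Duoxa2 and Nos2 overlapped between different WT libraries, but Duoxa2 was the higher within each WT library. No test was made of this order. The order of the means was the same in TG, at 331, 228, 6.89, 1.20 and 0.863 CPM per kilobase, although Nos2 was above Duoxa2 in TG replicate 2. Lcn2 and Saa1 stood below all of these in WT at 0.144 and 0.0467 CPM per kilobase, and Slpi was at 0. By summed counts Pigr ranked 26 and Pglyrp1 91 of all genes, so that these genes were among the abundant transcripts of the sorted cells, whereas Duox2 ranked 1907, Nos2 8899 and Duoxa2 9847.

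The upstream sequences are shown for the 3 members called lower for which the RefSeq promoter table had an entry. Their part in the difference between the groups was not tested. Each is the 250 bases before the RefSeq start, 5′ to 3′ on the gene's strand, in build GRCm38.p6, at chr1:130826434-130826683 (plus strand) for Pigr, chr2:122298228-122298477 (minus strand) for Duox2 and chr2:122298650-122298899 (plus strand) for Duoxa2. Capitals mark motif matches, CACGTG in Pigr and TATAAA in Duoxa2, and the Duox2 window had no match. The RefSeq starts of Duox2 and Duoxa2 lie farther apart than their GENCODE starts. The Duox2 window may therefore lie partly within the gene as GENCODE places it.
Pigr: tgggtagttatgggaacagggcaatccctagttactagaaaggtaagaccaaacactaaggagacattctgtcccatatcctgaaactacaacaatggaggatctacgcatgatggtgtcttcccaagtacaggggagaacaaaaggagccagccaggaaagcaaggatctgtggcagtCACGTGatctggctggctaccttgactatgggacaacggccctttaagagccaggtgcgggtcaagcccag
Duox2: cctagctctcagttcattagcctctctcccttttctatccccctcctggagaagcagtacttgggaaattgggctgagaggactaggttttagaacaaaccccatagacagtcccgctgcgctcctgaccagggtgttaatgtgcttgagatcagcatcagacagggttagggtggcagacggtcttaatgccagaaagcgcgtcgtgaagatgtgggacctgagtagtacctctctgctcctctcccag
Duoxa2: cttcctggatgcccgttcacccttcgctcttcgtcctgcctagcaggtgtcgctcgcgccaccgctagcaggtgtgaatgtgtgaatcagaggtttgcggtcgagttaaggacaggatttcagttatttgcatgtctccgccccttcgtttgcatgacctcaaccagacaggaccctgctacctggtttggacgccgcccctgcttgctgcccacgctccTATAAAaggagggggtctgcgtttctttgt

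Motifs were searched on both strands in the 250-base windows of the 7 genes that matched the table, all but Nos2. The E-box CACGTG, which is its own reverse complement, lay 71 to 66 bases upstream of the Pigr start and 146 to 141 bases upstream of the Slpi start, and was held by 6.04% of all 32536 windows. TATAAA lay 30 to 25 bases upstream of the Duoxa2 start and was held by 12.3% of windows. The NF-kB consensus was found in 1 of the 7 genes, Pglyrp1, 93 to 84 bases upstream on the minus strand, and in 3.92% of all windows. The STAT motif TTCNNNGAA was in 0 of the 7 windows and in 7.04% of all windows. No match overlapped another motif, and these letters alone do not show binding.

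Pigr, the epithelial receptor for polymeric immunoglobulin, had the smallest p of the 8 genes (ENSMUSG00000026417, GRCm39 chr1:130754397-130779986, plus strand). Its levels were 1345, 1387, 1657 and 969 CPM in TG replicates 1 to 4 and 2652, 2885, 2159 and 2127 CPM in WT replicates 1 to 4. TG replicate 4 was the lowest library. Every TG library lay below every WT library, a separation shown by 12.0% of all tested genes. The means were 1340 ± 283 CPM in TG and 2456 ± 374 CPM in WT (SD, n = 4 each). The log2 difference was -0.87 ± 0.16 (SE, edgeR adjusted p = 0.00304), which put TG at 54.6% of WT. In sorted bulk RNA, fewer Pigr-expressing cells in a library and less Pigr RNA per cell cannot be told apart. Within libraries without Y-linked counts the log2 difference was -1.02, and within those with them it was -0.70.

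Among the oxidant-producing enzymes, Nos2, the inducible nitric oxide synthase, was lower in TG (ENSMUSG00000020826, GRCm39 chr11:78811613-78851080, plus strand). TG libraries held 57, 64, 88 and 30 counts, and WT libraries held 110, 88, 130 and 85. In CPM these were 3.57, 4.50, 4.97 and 2.28 in TG and 8.79, 6.13, 8.70 and 6.33 in WT. The groups did not overlap in CPM, and the closest libraries were TG replicate 3 and WT replicate 2. The means were 3.83 ± 1.19 CPM and 7.49 ± 1.46 CPM (SD, n = 4 each), and the log2 difference was -0.95 ± 0.22 (SE, edgeR adjusted p = 0.0105). TG was at 51.6% of WT, with a 95% interval from 37.1% to 71.8%. Within the libraries without and with Y-linked counts the log2 difference was -0.89 and -1.02.

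Duox2, the hydrogen peroxide-producing dual oxidase, was lower in TG by a smaller amount (ENSMUSG00000068452, GRCm39 chr2:122109728-122128930, minus strand). Its levels were 50.6, 34.7, 56.1 and 45.2 CPM in TG and 66.9, 64.1, 67.1 and 60.4 CPM in WT. The WT libraries lay close together and all above the TG libraries, which were more spread. The means were 46.6 ± 9.14 CPM and 64.6 ± 3.16 CPM (SD, n = 4 each), with a log2 difference of -0.47 ± 0.12 (SE, edgeR adjusted p = 0.0175), or 72.3% of WT. When counts were scaled by library totals alone the groups overlapped. Within the libraries without and with Y-linked counts the log2 difference was -0.62 and -0.32.

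Duoxa2 is needed for DUOX2 to leave the endoplasmic reticulum (ENSMUSG00000027225, GRCm39 chr2:122129380-122133366, plus strand). Its gene is divergent from Duox2, with start sites 450 bases apart in GENCODE and farther apart in RefSeq. It had the largest fitted change of the 5 tested genes and the lowest counts, at 50, 12, 48 and 13 in TG and 97, 58, 79 and 40 in WT. In CPM these were 3.13, 0.844, 2.71 and 0.988 in TG against 7.75, 4.04, 5.29 and 2.98 in WT. The groups overlapped, because TG replicate 1 lay above WT replicate 4. The means were 1.92 ± 1.17 CPM and 5.01 ± 2.06 CPM (SD, n = 4 each), and the log2 difference was -1.35 ± 0.41 (SE, edgeR adjusted p = 0.0451), with TG at 39.3% of WT. Within the libraries without and with Y-linked counts it was -1.54 and -1.11.

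The Duoxa2 call rested on the libraries included. It was lost without TG replicate 2 (adjusted p = 0.102), TG replicate 4 (0.0871), WT replicate 1 (0.105), WT replicate 2 (0.0521) or WT replicate 3 (0.0880), and kept without each of the other 3 libraries, by the same edgeR fit. It was also lost with limma voom (0.0770) and with a Y-linked covariate (0.0521). The direction was the same in all 8 fits without 1 library. Duoxa2 shares 682 exon bases with Duoxa1 on the opposite strand, which held 8 counts over the 8 libraries, and the labels do not say whether counting used strand.

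**Figure D2:**
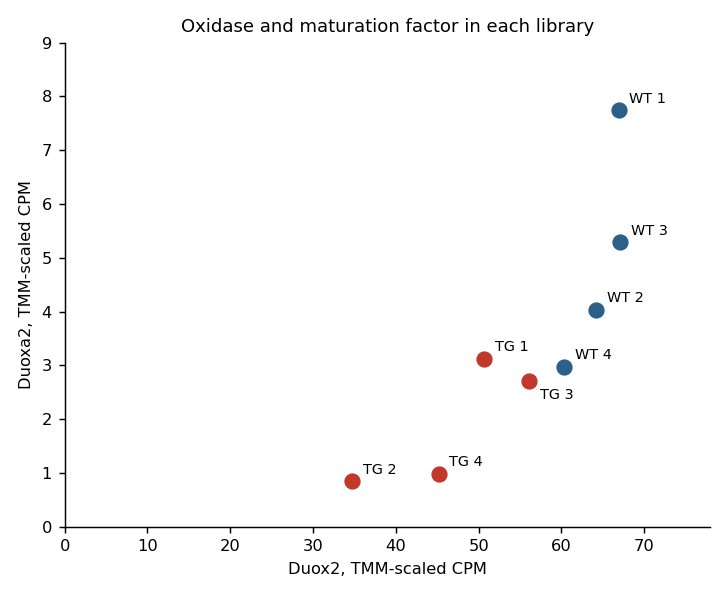
Duox2 (x axis) against Duoxa2 (y axis), both in TMM-scaled CPM on linear axes, 1 point per library, TG in red and WT in blue with replicate numbers. TG replicates 2 and 4 lie lowest on both axes, while TG replicate 1 (3.13 CPM) lies above WT replicate 4 (2.98 CPM) for Duoxa2.

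The ratio of Duox2 to Duoxa2 per kilobase differed between libraries. It was 3.81, 9.67, 4.87 and 10.7 in TG and 2.03, 3.74, 2.99 and 4.77 in WT. Both of the highest ratios belonged to the TG libraries with 12 and 13 Duoxa2 counts, and the groups overlapped. No test was made of this ratio.

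Pglyrp1, a peptidoglycan recognition protein, did not pass the test (ENSMUSG00000030413, GRCm39 chr7:18605256-18624384, plus strand). Its levels were 459, 412, 399 and 472 CPM in TG and 703, 507, 416 and 524 CPM in WT. WT replicate 1 stood highest, and WT replicate 3 lay within the TG range. The means were 435 ± 35.5 CPM and 538 ± 120 CPM (SD, n = 4 each). The log2 difference was -0.30 ± 0.14 with a 95% interval from -0.60 to -0.01 (edgeR adjusted p = 0.136, unadjusted p = 0.0422). Within libraries without Y-linked counts it was -0.48 and within those with them -0.10. Without WT replicate 1 the log2 difference was -0.15 (edgeR adjusted p = 0.385). It was called without WT replicate 3 (0.0419) and when no filter was applied (0.0291).

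Lcn2, the siderophore-binding lipocalin, was too low to test (ENSMUSG00000026822, GRCm39 chr2:32274645-32278264, minus strand). It had 1, 1, 4 and 9 counts in TG and 4, 5, 7 and 5 in WT, 36 counts in all. The TG libraries lay on both sides of the WT libraries. Kept in the fit without a filter, its log2 difference was -0.57 with an edgeR adjusted p of 0.627, so a difference was not detectable at this depth.

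Saa1 was also below the filter, with 32 counts in all (ENSMUSG00000074115, GRCm39 chr7:46389916-46392547, minus strand). It had 2, 2, 2 and 19 counts in TG and 0, 3, 2 and 2 in WT, so that TG replicate 4 held most of them. In the same library its close paralogue Saa2 had 19 counts, against 0 or 1 in each of the other 7 libraries, and Saa3 had 7 against 0 or 1. Without the filter the log2 difference of Saa1 was 1.73 (edgeR adjusted p = 0.157, unadjusted p = 0.0302), a value that rested on that library. Reads of Saa1 and Saa2 are hard to tell apart, so the split between them is uncertain.

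Slpi, the secretory leukocyte peptidase inhibitor, had 0 counts in all 8 libraries (ENSMUSG00000017002, GRCm39 chr2:164195990-164231015, minus strand). A count of 0 allows up to 3 counts, which is 0.169 to 0.240 CPM per library, a limit that covers counting error only. It shares 280 exon bases with Matn4 on the same strand, which held 10 counts over the 8 libraries.

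**Figure D3:**
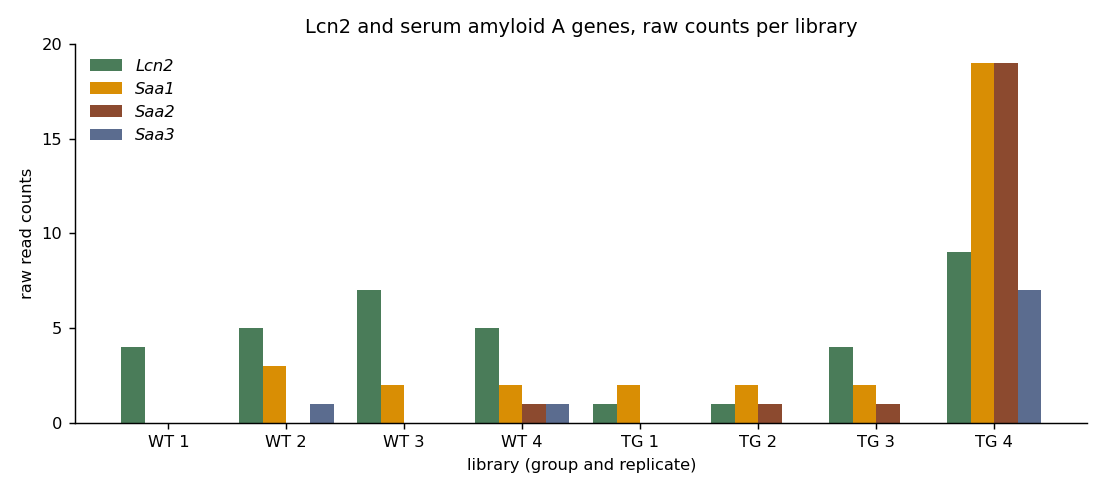
Raw read counts (y axis, linear) of Lcn2, Saa1, Saa2 and Saa3 in each library (x axis, group and replicate), as bars from 0. TG replicate 4 has 19, 19 and 7 counts of Saa1, Saa2 and Saa3, and no other library has more than 3 of any of them.

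Neutrophils make Lcn2, Pglyrp1 and Slpi in quantity, so their markers were read beside the members, although the study describes its FACS-sorted Paneth cells as almost free of other cells. Of 11 neutrophil markers 10 were at 0 in every library (S100a8, S100a9, Camp, Ngp, Mpo, Elane, Ly6g, Retnlg, Cxcr2 and Csf3r), and the list summed to at most 0.226 CPM in TG and 0.372 CPM in WT. Of 11 other immune markers 4 were at 0, and the sum was 9.45 to 30.03 CPM in TG and 11.9 to 19.0 CPM in WT, with the groups overlapping. The goblet markers, of the other main secretory lineage, summed to 4470 to 6845 CPM in TG and 5874 to 7003 CPM in WT, with the groups overlapping, and their part in the members' differences was not tested. Stem, enteroendocrine, tuft and proliferation marker sums also overlapped between the groups.

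The 5 tested genes were compared across settings of the analysis. All 5 differences stayed below 0 in each of 19 alternatives, 8 of which left out 1 library. Pigr was called in 18 of the 19, Duox2 in 17, Nos2 in 16, Duoxa2 in 9 and Pglyrp1 in 2. Pigr, Nos2 and Duox2 were called in each of the 8 fits without 1 library. Scaling by library totals alone moved the median of all genes to 0.12, and relative to that median the log2 differences were -0.87 for Pigr, -0.95 for Nos2, -0.48 for Duox2, -1.34 for Duoxa2 and -0.29 for Pglyrp1, with Pigr the only one called.

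**Figure D4:**
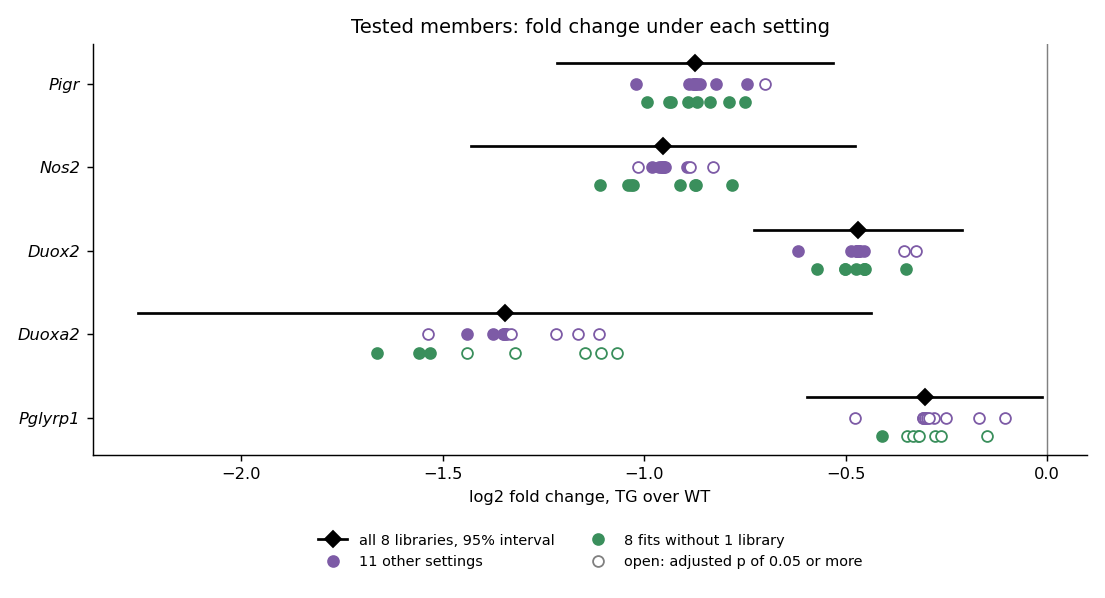
Log2 fold change of TG over WT (x axis) of the 5 tested genes (y axis): all 8 libraries with 95% interval (diamond and line), 11 other settings (purple) and 8 fits without 1 library (green), open where the adjusted p was 0.05 or more. Every point lies below 0, and Duoxa2 has the widest interval and open points in both colours.

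The 2 against 2 comparisons within libraries without and with Y-linked counts had less to estimate the spread from. Without Y-linked counts, 2 of the 5 genes were called by edgeR (Pigr, adjusted p = 0.00463, and Duox2, 0.0496), and with them 0 were called. At an unadjusted p under 0.05 the numbers were 5 and 4. No interaction between group and Y-linked counts was called for these genes (unadjusted p from 0.170 to 0.776, smallest adjusted p 0.921).

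Genes that work with the oxidant enzymes were partly lower in TG as well. The list held 23 genes, of which 16 were tested, 5 were called lower (31.2% of those tested, against 9.65% of all tested genes) and 0 higher. The median log2 difference was -0.25. This list and the lists below were chosen with earlier results of these data known, so their shares are given as a description. Gpx2, an epithelial glutathione peroxidase that removes hydrogen peroxide, changed most, with means of 112 ± 24.6 CPM in TG and 316 ± 72.5 CPM in WT (SD, n = 4 each, log2 -1.49 ± 0.18, edgeR adjusted p = 0.000947). All 4 TG libraries, at 102, 89.6, 147 and 111 CPM, lay below the WT libraries, at 409, 333, 279 and 242 CPM.

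Ass1 and Asl, enzymes that regenerate the arginine used by NOS2, had log2 differences of -0.66 ± 0.13 and -0.28 ± 0.09 (SE, edgeR adjusted p = 0.00430 and 0.0452). Gpx1, the ubiquitous glutathione peroxidase, had -0.35 ± 0.11, and Cyba, the p22phox subunit shared by several NADPH oxidases, had -0.43 ± 0.14 (SE, edgeR adjusted p = 0.0408 and 0.0454). Gpx2 and Ass1 were called in each fit without 1 library, whereas Cyba was called only without WT replicate 2, Asl only without TG replicate 3, and Gpx1 only without WT replicate 2 or WT replicate 3 (adjusted p up to 0.139 in the others).

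The remaining oxidant partners named here were not called. Nox1, the colonic NADPH oxidase, had a log2 difference of -0.51 ± 0.35, and Gch1, which makes a NOS2 cofactor, had -0.72 ± 0.32 (SE, edgeR adjusted p = 0.345 and 0.131). Leaving out WT replicate 1, the highest library for Nox1, gave -0.20, and leaving out TG replicate 4, its lowest, gave -0.33. Duox1 and Duoxa1, the paralogous oxidase pair, were too low to test, with 10 and 8 counts over the 8 libraries. Duox2 held 6462.

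Of 26 secreted defence relatives, 10 were tested, 4 were called lower (40.0%, against 9.65% of all tested genes) and 0 higher. The median log2 difference was -0.60. The share and the median include Wfdc18, which passed the filter through WT alone. Ccl28, a mucosal chemokine that attracts IgA-producing cells, was at 28.3, 30.4, 32.3 and 15.4 CPM in TG and 48.9, 45.9, 42.2 and 42.1 CPM in WT. These groups did not overlap (log2 -0.75 ± 0.19, SE, edgeR adjusted p = 0.0215), though the call was lost without TG replicate 1 or WT replicate 1 (adjusted p up to 0.0745).

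Reg3g, a lectin that kills Gram-positive bacteria, had a log2 difference of -2.75 ± 0.38, and Retnlb, a resistin-like antibacterial protein, had -3.93 ± 0.49 (SE, edgeR adjusted p = 0.00347 and 0.00384). Wfdc18, which like SLPI has a WAP domain, had 3, 0, 7 and 5 counts in TG and 28, 13, 12 and 16 in WT (log2 -2.34 ± 0.57, SE, edgeR adjusted p = 0.0126). Wfdc18 passed the filter through its WT libraries alone, so a gene kept in this way had to differ, and its call is no support for the count of the list. Slc22a17, a receptor for LCN2 chosen after its values were seen, had 33, 21, 24 and 29 counts in TG and 0, 18, 9 and 6 in WT. Its log2 difference was 1.57 ± 0.53 (SE, edgeR adjusted p = 0.0538), and it passed the filter through TG alone. It was called without WT replicate 2 (log2 2.26, edgeR adjusted p = 0.0153) and with DESeq2 (0.0257), limma voom (0.0282) and no filter (0.00185).

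Wfdc2, Saa2, Saa3, Pglyrp2, Pglyrp3 and Pglyrp4 were too low to test, and Pglyrp1 was the only peptidoglycan recognition gene above the filter.

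Receptors, adaptors, transcription factors and feedback inhibitors of the cytokine and microbial signalling pathways that act on such genes, here called inducing signals, were the most completely measured list, with 24 of 26 genes tested. Of these 9 were called lower (37.5%, against 9.65% of all tested genes) and 1 higher, with a median log2 difference of -0.21. Stat3, the transcription factor downstream of IL-22 and IL-6 receptors, was at 78.7, 67.1, 101 and 73.4 CPM in TG and 164, 142, 125 and 121 CPM in WT. The groups did not overlap (log2 -0.78 ± 0.13, SE, edgeR adjusted p = 0.00205). Socs3, a feedback inhibitor that STAT3 induces, was at 8.95, 6.90, 7.73 and 6.39 CPM in TG and 59.9, 58.8, 17.6 and 17.9 CPM in WT (log2 -2.35 ± 0.53, SE, edgeR adjusted p = 0.0305). Within WT it was highest in replicates 1 and 2, the libraries without Y-linked counts.

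Nfkbiz, an atypical inhibitor of NF-kB needed for many secondary response genes, was at 18.6, 16.3, 21.0 and 9.43 CPM in TG and 29.3, 32.7, 26.6 and 24.6 CPM in WT (log2 -0.78 ± 0.20, SE, edgeR adjusted p = 0.0219). Like Pigr and Ccl28 it had its lowest value in TG replicate 4. Ticam1, the adaptor of TLR3, had a log2 difference of -0.62 ± 0.10 (SE, edgeR adjusted p = 0.00150). The C/EBP factors Cebpb and Cebpd had -0.68 ± 0.16 and -1.03 ± 0.31, and Nfkbia, which holds NF-kB in the cytoplasm, had -0.31 ± 0.08 (SE, edgeR adjusted p = 0.0125, 0.0332 and 0.0177). Nfkb1, with -0.25, was also called (adjusted p = 0.0429). Relb, a subunit of the alternative NF-kB pathway, was the only gene of the 3 lists called higher, at 18.7 ± 1.36 CPM in TG and 14.7 ± 1.98 CPM in WT (SD, n = 4 each, log2 0.35 ± 0.11, SE, edgeR adjusted p = 0.0463). Nfkb1 and Relb lie outside the limit of 8 genes per list and were chosen after their values were seen.

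Of the 18 genes called lower in the 3 lists, all 18 were below 0 in every alternative in which they were tested, Wfdc18 being under the filter of 1 CPM in 4 libraries. Of the 18, 8 were called in each fit without 1 library, among them Gpx2, Ass1, Reg3g, Retnlb, Ticam1 and Stat3. Wfdc18 is also among the 8, but it passed the filter through WT alone and is no support for either count. Among the signals, the call was lost for Nfkbiz without TG replicate 2 or WT replicate 1, for Cebpb without TG replicate 1, for Nfkbia without TG replicate 1 or TG replicate 2, for Cebpd without TG replicates 1, 2 or 3 or WT replicate 1, and for Socs3 without any 1 TG library or WT replicate 1. Without WT replicate 1 the log2 difference of Cebpd was -0.69. Nfkb1 was called only without WT replicate 3, and Relb only without WT replicate 1.

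Within the 2 against 2 libraries, 15 genes of the 3 lists were called lower by edgeR without Y-linked counts and 4 with them (Gpx2, Reg3g, Retnlb and Socs3). Stat3 had a log2 difference of -1.07 without Y-linked counts and -0.49 with them (edgeR adjusted p = 0.00104 and 0.118), and Cebpd had -1.75 and -0.36 (0.0210 and 0.580). Their interactions with Y-linked counts were not called (edgeR adjusted p = 0.773 and 0.765), whereas that of Socs3 was (0.0456), at -2.90 and -1.32. Gpx2 had -1.96 and -1.01, called in both classes (edgeR adjusted p of the interaction 0.362). Against the value over all 8 libraries, at least 1 of the classes also differed by more than 1.5 times in Wfdc18, at -3.86 and -1.33, in Nfkb1, at -0.34 and -0.16, and in Nox1, at -0.68 and -0.31.

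**Figure D5:**
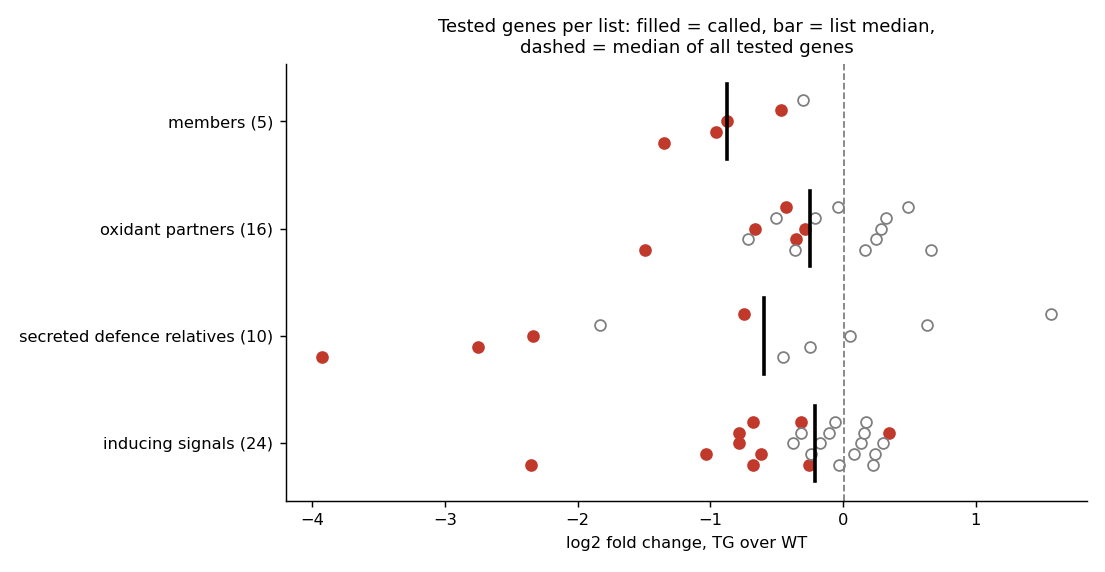
Log2 fold change of TG over WT (x axis) of each tested gene of the inducible defence genes (5), oxidant partners (16), secreted defence relatives (10) and inducing signals (24), filled red where called, with the list median as a bar and the median of all tested genes dashed. List medians lie at -0.87, -0.25, -0.60 and -0.21, and 1 filled point, Relb, lies above 0.

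The tested genes most like each called member over the 8 libraries were found by the root mean square difference of centred log2 CPM. For Pigr they were Snx10 (0.106), Nfkbiz (0.138) and Alpk1 (0.155), against 0.504 for the spread of Pigr about its own mean. Nos2 was closest to Lypd8l (0.149), AW112010 (0.150) and Zc3h12a (0.200), with a spread of its own of 0.596. The profile of Duox2 was matched most by 4933421A08Rik (0.0689), Oas1a (0.0779) and Supv3l1 (0.0882), and its own spread was 0.309. Duoxa2 had the least close neighbours, B3gnt5 (0.285), Usp18 (0.364) and Igsf11 (0.471), against 0.969. These genes share the libraries and the group difference with the members, and the values are given as a description.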

How the data were processed

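The authors deposited whole-number read counts per Ensembl gene and library in 1 table, from a stranded mRNA library kit. Submitters' processing notes name FastQC 0.12.0, STAR 2.7.0a, DESeq2 and the mm39 build. The counting tool, its strand setting and its handling of multi-mapped reads are not stated for this table. Symbols and positions came from GENCODE M39 on GRCm39 (54749 of 55414 IDs matched, the other 665 holding at most 0.015% of a library's counts). Promoters came from RefSeq (GRCm38.p6).

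The members and gene lists were chosen with earlier results of these data known. Groups followed the labels. Counts were tested with edgeR 4.0.16 (R 4.3.3, robust quasi-likelihood, TMM, default filter by group, group as the only term). CPM used TMM-scaled totals. Named genes were all members, called genes of 3 lists (at most 8 per list by p), direct partners and paralogues, and the 3 nearest profiles per called member, less 2 genes not reported here. Alternatives were DESeq2 1.42.0, RLE factors, total counts, limma 3.58.1 voom with quality weights, factors without alpha-defensin genes, no filter, 1 CPM in 4 libraries, a replicate block, a Y-linked covariate, fits within Y-linked classes and each library left out. Steps were tested on simulated data. All 8 libraries differed beyond sampling noise.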

Additional observations from a re-analysis of the deposited data

Results flagged for a closer look

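Of 79 groups of 4 libraries examined, 10 had a library standing apart by Dixon's ratio, the gap to the nearest library over the group's range. About 1 in 20 groups, or 3.95, would do so by chance if values were normally distributed. Groups of a few counts are not, and 1 count alone can give a ratio of 1.0, so 10 and 3.95 are not comparable. For the serum amyloid genes TG replicate 4 stood apart in Saa1 (ratio 0.979, 19 counts against 2), Saa2 (0.951, 19 against 0 or 1) and Saa3 (1.0, 7 against 0). Single counts gave a ratio of 1.0 for Saa2 in WT replicate 4 and for Pglyrp2 in TG replicate 4, and Wfdc2 was low in WT replicate 2 (0.865, 5 counts against 9 or 10). WT replicate 1 stood high in Cebpd (0.937, 8.39 CPM against 3.88 to 4.17) and in Nfkbia (0.927, 48.8 CPM against 43.5 to 43.9). WT replicate 3 stood high in the summed enteroendocrine markers (0.8295, 38.2 CPM against 6.41 to 11.8) and proliferation markers (0.939, 301 CPM against 199 to 205). None of the members above the filter had such a library.

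The TG to WT difference of Socs3 depended on whether Y-linked counts were present, by 1.578 on the log2 scale (edgeR interaction, 1 of 34 genes examined, adjusted p = 0.0456). The log2 difference was -2.90 without Y-linked counts and -1.32 with them.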

How the results depend on the processing

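Members called lower numbered 4 in the reported fit, 1 with total counts only, and 2 and 0 within libraries without and with Y-linked counts (4 at an unadjusted p under 0.05 in the latter), and 3 to 4 without 1 library. Over all genes, 985 higher and 1151 lower calls became 787 and 262 with total counts only, 500 and 638 within libraries without Y-linked counts, 113 and 104 within those with them, 485 to 1045 higher and 550 to 1183 lower without 1 library, the fewest higher without TG replicate 2 and the fewest lower without TG replicate 1. Fits on 2 against 2 libraries hold fewer samples. The cause of the other changes was not tested. Companion genes called lower fell from 18 to 8 with total counts only and to 4 within libraries with Y-linked counts, and numbered 9 to 21 without 1 library, with 9 without TG replicate 1 and 10 without TG replicate 2 or WT replicate 1. Companion genes called higher numbered 1, against 2 with DESeq2, 2 with voom, 4 with no filter, 0 within either class of libraries (3 and 6 at an unadjusted p under 0.05, without and with Y-linked counts) and 0 to 1 without 1 library, 0 of them without TG replicates 1, 2 or 4 or WT replicates 3 or 4. Members called higher numbered 0 in every alternative, with 1 (Saa1) at an unadjusted p under 0.05 without the filter. No reported direction reversed.

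The labels do not say that replicate numbers pair the libraries, so the libraries were not taken as pairs. The deviations of same-numbered TG and WT libraries correlated at 0.0762, 0.0666, 0.286 and 0.231. TG replicates 3 and 4 correlated best with WT replicates 3 and 4. For TG replicate 1 the best was WT replicate 2 (0.235). TG replicate 2 correlated about equally with WT replicates 1 and 2 (0.0745 and 0.0666). These values do not settle whether the libraries were paired. A replicate block gave 4 members lower, 1039 genes higher and 1164 lower. For these members the edgeR adjusted p was smaller than in the reported fit. It was 0.000849 for Pigr, 0.00495 for Nos2, 0.00707 for Duox2 and 0.00204 for Duoxa2. The calls of Cebpd, Asl, Relb and Nfkb1 were lost under the block (adjusted p = 0.0504, 0.0575, 0.0584 and 0.0588), and Usp18 was called (0.0441). No difference was detectable at this depth for members under the filter.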
